A study of Mus musculus with 82 samples.

Results

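Chemokines and chemokine receptors were examined across mouse hematopoietic stem cells (HSCs) and progenitors. Members were the genes of the count tables whose symbol begins with Ccl, Ccr, Cxcl, Cxcr or Ackr and a digit or with Cx3c, together with Ccrl2. Of 55376 genes, 62 met this rule. They comprised 25 CC ligands, 14 CXC or CX3C ligands, 11 CC receptors, 7 CXC or CX3C receptors and 5 atypical receptors. All mRNA came from C57BL/6J males. Young mice were 3 to 4 and old mice 24 to 26 months of age. HSCs were sorted as LSK CD34- Flk2- CD150+ cells in 4 young libraries, each from pooled mice, and 8 old libraries, each from 1 mouse. In 2 further experiments, old HSCs received a lentiviral control shRNA or shRNA1 or shRNA2 against nBtaf1, the shorter variant of Btaf1. They were sorted as GFP+ cells after 3.5 days in culture or after transplantation into irradiated CD45.1 females. Transplanted HSCs were sorted as LSK CD48- CD150+ CD45.2+ cells, with recipients pooled for each library. Each of those 6 arms had 2 libraries, and so had young common myeloid (CMP), granulocyte-monocyte (GMP) and megakaryocyte-erythroid (MEP) progenitors. Chromatin came from ATAC-seq, which marks open DNA (4 young and 4 old HSC libraries), and from ChIP-seq of H3K27ac, a mark of active enhancers and promoters (2 per age). P-values measure the spread between these libraries.

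Chemokines are small secreted proteins that guide cell migration through G protein-coupled receptors. In the marrow, CXCL12 from stromal cells and its receptor CXCR4 on HSCs are known for holding stem cells in their niche, while CCR2, CX3CR1, CXCR2 and CCR1 guide myeloid cells. Atypical receptors such as ACKR1, ACKR3 and CCRL2 bind chemokines without the usual G protein signal.

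Between 20475764 and 24654742 reads were counted on genes per HSC library and between 33177394 and 42737054 per shRNA or progenitor library. Levels are given in CPM, reads scaled to each library's total on genes. The 8 HSC markers summed to 2707 to 2826 CPM in young and 2536 to 2796 CPM in old HSCs, and to 8.42 to 10.1 CPM in MEP. The MEP libraries held 7288 to 7432 CPM of 7 erythroid markers but only 24.4 to 25.4 CPM of 8 megakaryocyte markers, against 631 to 642 CPM of the latter in CMP. The 8 B cell markers summed to 84.0 to 155 CPM in young and 33.8 to 41.7 CPM in old HSCs. At the gene level, Btaf1 stood at 137 to 141 CPM in culture controls and 110 to 119 CPM in the cultured knockdowns, and at 161 to 165 CPM in transplanted controls and 118 to 139 CPM in the transplanted knockdowns. Counts per gene do not resolve the targeted variant.

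The 3 sequences below are those behind the chromatin results. They are an intronic stretch of Cx3cl1 inside an H3K27ac peak that was lower in old HSCs (chr8:94779105-94779404, plus strand), the Ccr9 region with the largest accessibility gain among members (chr9:123688285-123688584, plus strand) and the 250 bases before the start of Cxcr1, within a gained region (chr1:74194632-74194881, minus strand). All are from RefSeq's GRCm38 assembly (mm10), 5′ to 3′, with motif matches in capitals.
Cx3cl1: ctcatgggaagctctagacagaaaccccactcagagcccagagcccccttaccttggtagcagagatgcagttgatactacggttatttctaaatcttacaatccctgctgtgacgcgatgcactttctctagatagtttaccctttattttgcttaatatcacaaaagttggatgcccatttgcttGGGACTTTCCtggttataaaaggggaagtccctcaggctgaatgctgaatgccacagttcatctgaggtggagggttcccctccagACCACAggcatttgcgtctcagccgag
Ccr9: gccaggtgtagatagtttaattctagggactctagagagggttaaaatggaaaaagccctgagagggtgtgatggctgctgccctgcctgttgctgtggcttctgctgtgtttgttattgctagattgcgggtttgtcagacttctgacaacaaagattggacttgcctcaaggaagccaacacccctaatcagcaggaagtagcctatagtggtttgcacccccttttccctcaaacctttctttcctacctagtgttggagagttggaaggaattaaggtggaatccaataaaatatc
Cxcr1: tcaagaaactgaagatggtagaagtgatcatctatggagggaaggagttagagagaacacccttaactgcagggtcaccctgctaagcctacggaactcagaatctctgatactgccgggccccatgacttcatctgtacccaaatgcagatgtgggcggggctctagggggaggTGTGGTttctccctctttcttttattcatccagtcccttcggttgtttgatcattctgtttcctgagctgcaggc
Both strands were searched for short motifs. For GATA factors the letters were AGATAA. The other form searched for these factors was TGATAA. For AP-1 they were TGANTCA. For RUNX factors they were TGTGGT. For ETS factors of the PU.1 type they were GAGGAA, and the NF-kB consensus was searched too. The Cx3cl1 stretch held GGGACTTTCC from base 188 and ACCACA, the reverse complement of the RUNX letters, from base 274. The Cxcr1 promoter held TGTGGT from base 176, and none of these letters occurred in the Ccr9 stretch. The NF-kB letters were in 1.73% and the RUNX letters in 27.3% of the middle 300 bases of 89242 tested regions. Of 45 members with a RefSeq promoter, 6 held the NF-kB letters (Cxcl1, Cxcl2, Cxcl3, Ccl9, Ccl20 and Ccr3), against 1.41% of all 32851 promoters. The RUNX letters were in 10 and the ETS letters in 13 of the 45, against 14% and 23.3% of all promoters. The GATA letters were in 7 and the AP-1 letters in 4, against 16.6% and 6.75%. A match is a description of letters and not a bound site.

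Most of the family was low or absent in each cell type. In young HSCs, 23 of 62 members had a mean of at least 1 CPM, against 19 in old HSCs, 13 in CMP, 12 in GMP and 6 in MEP. In all, 3 members had no read in any library and 32 stayed under 1 CPM in every group, while 5 (Ccl25, Ccl27a, Cxcr4, Ccrl2 and Ackr4) reached it in every group. On the opposite strand, Ccl25 shares 204 of its 7445 bp of exon with Elavl1 (group means of 190 to 484 CPM). Ackr4 likewise shares 479 of its 5380 bp with Acad11 (23.1 to 39.2 CPM). Without a stated strand setting, reads in these stretches cannot be told apart. Per kilobase of exon, the CC ligand Ccl4 led in young HSCs at 41.3 CPM per kb, ahead of Cxcr4 at 12.8, the membrane-bound ligand Cx3cl1 at 11.6, Ccrl2 at 9.26, Ccl27a at 8.12 and Ccl3 at 6.44 CPM per kb. Ccl4 also led in old HSCs, at 33.5 CPM per kb. In CMP and GMP, Ccl9 led at 72.4 and 62.8 CPM per kb, followed by Cxcr4 and Ccr2. In MEP, Cxcr4 led at 4.73 CPM per kb, ahead of the gut-homing chemokine gene Ccl25 at 2.22 and Ackr1 at 1.72 CPM per kb.

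**Figure D1:**
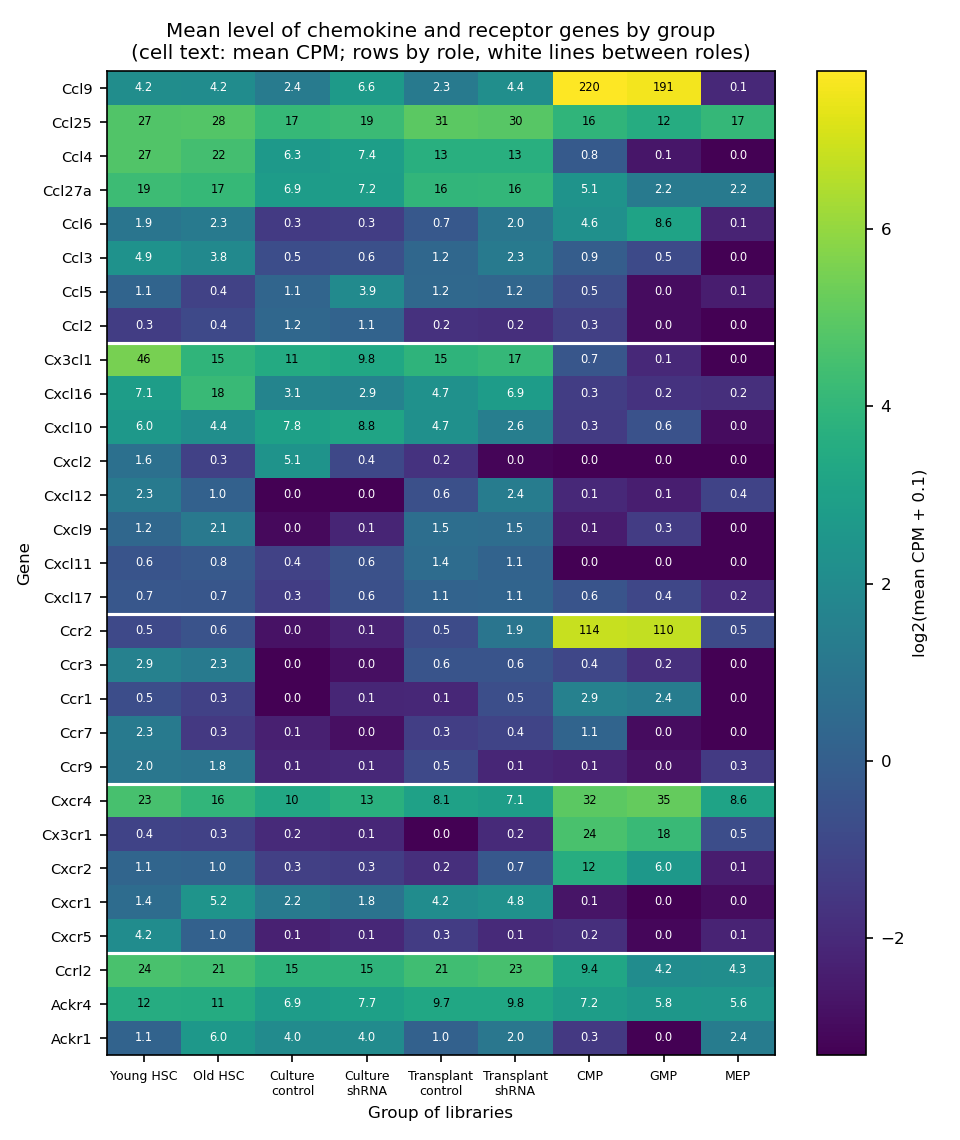
Mean level of members that reached 1 CPM in at least 1 group (rows, by role) in each group of libraries (columns), colored by log2(mean CPM + 0.1) with the mean CPM printed in each cell. Ccl9 and Ccr2 are bright in CMP and GMP only, and Cx3cl1 is brightest in young HSCs.

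With age, 7 members changed. A member was called where it differed more than 1.5-fold with an adjusted p under 0.05 (edgeR quasi-likelihood test, Benjamini-Hochberg over 21522 genes). Of 36 members that could be tested, 3 were higher and 4 lower in old HSCs, where 4.69% of all genes tested were higher and 2.83% lower. The median log2 fold change (old minus young) was -0.14 over the members tested and -0.01 over all genes. Ackr1, Cxcr1 and Cxcl16 rose, and Cx3cl1, Ccr7, Cxcr5 and Cxcl2 fell. For all of these but Cxcl2, no old library overlapped a young one. They were picked by the test on the same libraries, so this describes them and adds no support. The share of all genes without overlap was not counted. The other 29 tested members were not called, and 26 had too few reads to be tested.

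The ligand with the largest difference in CPM was Cx3cl1 (chr8:94772009-94782427, plus strand), fractalkine, which acts both as an adhesion molecule and, once shed, as a chemoattractant. It stood at 46.8, 46.3, 46.8 and 42.2 CPM in the young libraries and between 13.3 and 17.0 CPM (median 15.1) in the 8 old ones. The old libraries lay far below the young and close together. The means were 45.5 ± 2.24 (SD, n = 4) and 15.1 ± 1.36 CPM (n = 8), a 2.93-fold fall (log2 fold change -1.55, SE 0.07, edgeR adjusted p = 3.31e-14).

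Cxcl16 (chr11:70453983-70459984, minus strand), the other ligand with a membrane-bound form, went the opposite way. Its young libraries held 7.32, 6.06, 8.42 and 6.63 CPM and its old libraries 12.4 to 22.3 CPM (median 18.2), a 2.65-fold rise (log2 fold change 1.40, SE 0.15, edgeR adjusted p = 9.42e-07). Zmynd15, on the opposite strand, shares 552 bp of exon with the 3021 bp of Cxcl16 exon, and it stood at 8.90 ± 0.732 CPM (n = 4) in young and 27.4 ± 6.06 CPM (n = 8) in old HSCs. Without a stated strand setting, reads in the shared stretch cannot be told apart.

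Cxcl2 (chr5:90903871-90905938, plus strand), a neutrophil attractant, was at 0.879, 4.40, 0.552 and 0.539 CPM in the young and 0.0885 to 0.575 CPM (median 0.309) in the old libraries. Young replicate 2 stood apart, and the groups overlapped. The fall (log2 fold change -2.14, SE 0.53, edgeR adjusted p = 0.00616) was not called without young replicate 2, where the log2 fold change was -0.92 and the adjusted p 0.239.

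Among receptors, Ackr1 (chr1:173331886-173333750, minus strand) had the largest rise. This atypical receptor, the Duffy antigen, is known for taking up chemokines on red cells and venules. It was at 1.05, 0.977, 0.783 and 1.41 CPM in young HSCs and 4.16 to 8.19 CPM (median 5.98) in old HSCs, a 5.83-fold rise (log2 fold change 2.54, SE 0.20, edgeR adjusted p = 1.10e-09). Its 1405 bp of exon share 361 bp with Cadm3 on the same strand, which stood at 1.10 ± 0.330 CPM (n = 4) in young and 1.68 ± 0.574 CPM (n = 8) in old HSCs.

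Cxcr1 (chr1:74191785-74194631, minus strand), a receptor for ELR-type CXC chemokines, was at 0.962, 2.54, 1.29 and 0.954 CPM in young and 4.19 to 7.30 CPM (median 5.01) in old HSCs, a 3.80-fold rise (log2 fold change 1.93, SE 0.23, edgeR adjusted p = 1.02e-06). Its neighbour Cxcr2 was not called, with means of 1.14 and 1.05 CPM (log2 fold change -0.07, SE 0.31, edgeR adjusted p = 0.913).

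The lymphocyte receptors Ccr7 (chr11:99144196-99155077, minus strand) and Cxcr5 (chr9:44511787-44561877, minus strand), which guide lymphocytes to lymph nodes and follicles, both fell. Ccr7 was at 1.97, 1.42, 2.81 and 2.86 CPM in young and 0.0811 to 0.531 CPM (median 0.240) in old libraries (log2 fold change -3.06, SE 0.33, edgeR adjusted p = 1.81e-07). Cxcr5 was at 2.80, 2.44, 4.51 and 6.92 CPM in young and 0.664 to 1.40 CPM (median 0.973) in old libraries (log2 fold change -2.02, SE 0.25, edgeR adjusted p = 1.53e-06). No library overlapped between ages for either gene. In the same libraries 7 of the 8 B cell markers, among them Cd79a, Cd79b, Ebf1 and Pax5, were also lower in old HSCs. The 8 T and NK cell markers summed to 25.1 to 28.9 CPM in young and 65.7 to 92.1 CPM in old HSCs (Klrb1c higher and Cd2 lower), and the 5 GMP markers to 126 to 154 and 292 to 337 CPM (Prtn3 higher and Mpo lower). The 8 megakaryocyte markers summed to 1701 to 1769 and 2000.5 to 2312 CPM (Vwf and Itga2b higher and Ppbp lower). The 4 plasma cell markers summed to 6.23 to 255 CPM in young and 4.90 to 35.7 CPM in old HSCs. Their highest sum was in young replicate 4, which also held the most Ccr7 and Cxcr5. The 8 neutrophil markers summed to 5.10 to 189 CPM in young (highest in replicate 3) and 3.85 to 100 CPM in old HSCs. The part of these lists in both results was not tested. In bulk samples, fewer cells of a type and less RNA per cell cannot be told apart. Cxcr5 shares 110 bp of exon with Bcl9l on the opposite strand, which stood at 53.1 ± 1.02 (n = 4) and 47.4 ± 3.52 CPM (n = 8).

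**Figure D2:**
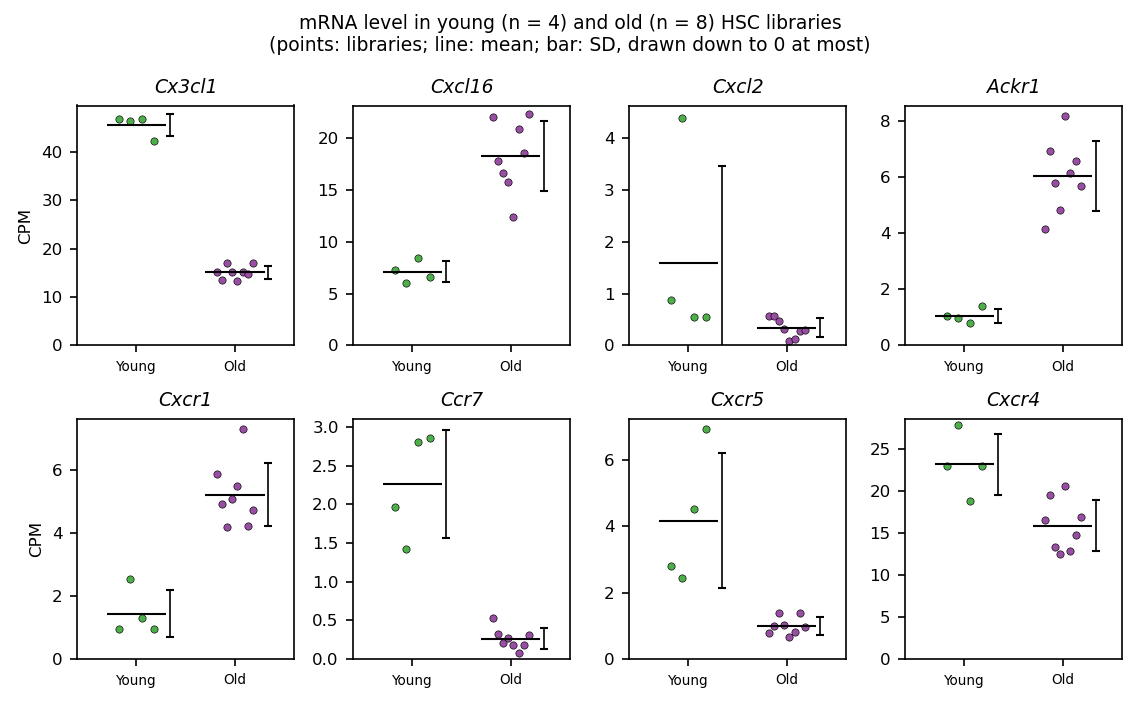
CPM of the 7 members called with age and of Cxcr4 (one panel each, linear axes from 0) in each young (green, n = 4) and old (purple, n = 8) HSC library, with the mean as a line and the SD as a bar. Cx3cl1 drops from about 45.5 to 15.1 CPM without overlap, and 1 young library at 4.40 CPM carries the Cxcl2 difference.

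The niche receptor Cxcr4 was at 23.0, 27.8, 18.8 and 23.0 CPM in young and 12.5 to 20.6 CPM (median 15.6) in old HSCs. Its log2 fold change of -0.50 (SE 0.13, edgeR adjusted p = 0.00976) was past the p threshold but short of 1.5-fold, and the groups overlapped. Its ligand Cxcl12, normally a stromal product, was at 1.63, 0.830, 1.61 and 5.02 CPM in young and 0.406 to 2.23 CPM (median 0.895) in old HSCs (log2 fold change -1.19, SE 0.46, edgeR adjusted p = 0.0865). Ackr3, the atypical receptor for CXCL12, averaged 0.768 ± 0.336 CPM (n = 4) and 0.619 ± 0.346 CPM (n = 8).

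The most abundant CC ligands were not called with age. Ccl4, a macrophage inflammatory protein, averaged 27.3 ± 0.679 CPM (n = 4) in young and 22.1 ± 4.67 CPM (n = 8) in old HSCs (log2 fold change -0.26, SE 0.14, edgeR adjusted p = 0.23), with a wider range in old (14.5 to 26.9 CPM). Ccl3 averaged 4.93 ± 0.651 and 3.75 ± 1.10 CPM, Ccl25 27.3 ± 2.22 and 28.3 ± 2.13 CPM and Ccrl2 24.1 ± 2.57 and 21.4 ± 2.70 CPM. Ccl5, a T cell attractant, was at 2.18, 0.635, 0.322 and 1.24 CPM in young and 0.0902 to 1.31 CPM (median 0.264) in old HSCs (log2 fold change -1.57, SE 0.58, edgeR adjusted p = 0.0648). Cxcl10, an interferon-induced ligand, ranged from 3.22 to 8.98 CPM in young and 0.797 to 8.66 CPM in old HSCs (edgeR adjusted p = 0.675). The myeloid receptors Ccr1, Ccr2 and Cx3cr1 averaged 0.509, 0.451 and 0.374 CPM in young HSCs.

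Old replicate 3 stood above the other old libraries for a pair of myeloid members. It held 8.38 CPM of Ccr3, the eotaxin receptor, against 0.649 to 2.62 CPM in the other 7 old libraries, and 7.28 CPM of Ccl6 against 0.767 to 2.45 CPM. The same library had the highest sum of the 10 monocyte and macrophage markers among old libraries (534 CPM, lowest 422 CPM), whose part was not tested. Neither Ccr3 nor Ccl6 was called with age (edgeR adjusted p = 0.827 and 0.774).

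Chromatin at member genes was compared between 4 young and 4 old HSC libraries. Of 127695 regions, 114 had their middle between 1000 bp upstream of a member and its end, at 40 members. Of the 87 tested, 6 gained and 5 lost accessibility, by more than 1.5-fold with an edgeR adjusted p under 0.01, where 10.1% of all 89245 regions tested gained and 2.9% lost it. The gained regions were at Ccr9 (2 regions), Cx3cr1, Ackr4, Cxcr1 and Cxcr5, and the lost ones at Ccr7, Ccr4, Cx3cl1, Ccl25 and Cxcr2. The median log2 fold change was -0.14 over member regions and -0.01 over all regions. Without old replicate 5, 6 or 8, 3 regions gained, and without young replicate 3, 3 lost.

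At Cx3cl1 the regions lower in old HSCs lay away from the start. The region over the start was at 16.5, 12.8, 14.1 and 13.7 CPM in young and 14.8, 13.7, 13.001 and 15.1 CPM in old libraries, and these overlapped (log2 fold change -0.04, SE 0.09, edgeR adjusted p = 0.806). The region over the 3′ untranslated part of the last exon (chr8:94781847-94782277) was at 8.74, 6.87, 8.83 and 8.11 CPM in young and 4.54, 4.71, 4.41 and 3.99 CPM in old libraries, without overlap. It lost accessibility (log2 fold change -0.91, SE 0.13, edgeR adjusted p = 1.08e-07).

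The region around the printed Cx3cl1 stretch (chr8:94778926-94779583), mostly intronic, was at 17.9, 17.2, 18.2 and 16.8 CPM in young and 12.5, 10.7, 13.001 and 12.98 CPM in old libraries. Its difference (log2 fold change -0.53, SE 0.09, edgeR adjusted p = 2.43e-06) was past the p threshold but short of 1.5-fold. The H3K27ac peak over the same stretch (chr8:94778245-94779826) had a signal of 2.76 and 2.25 in the young and 1.07 and 0.904 in the old libraries, a ratio of old to young of 0.395. The H3K27ac peak at the start had 4.41 and 5.04 in young and 4.26 and 4.05 in old libraries. At the start the ratio was 0.879.

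At Cxcr1 the start itself gained accessibility. The region (chr1:74194292-74194977), which contains the printed promoter, was at 3.36, 2.53, 3.69 and 3.503 CPM in young and 6.09, 6.98, 6.28 and 5.39 CPM in old libraries. These did not overlap (log2 fold change 0.89, SE 0.15, edgeR adjusted p = 3.57e-06). At Cxcr2, the region just upstream of its start (middle at -252 bp) went from a mean of 3.42 ± 0.648 to 2.17 ± 0.393 CPM (n = 4 each), a loss (log2 fold change -0.68, SE 0.19, edgeR adjusted p = 0.00401), while its mRNA was not called. Further into Cxcr2 the direction was the opposite. The region with its middle 1790.5 bp downstream of its start went from 1.36 ± 0.476 to 2.12 ± 0.0711 CPM and was not called (log2 fold change 0.59, SE 0.24, edgeR adjusted p = 0.0480), and a region 8480 bp downstream, beyond the window used for these counts, gained accessibility (1.19 to 1.43 CPM in young and 2.60 to 3.13 CPM in old libraries, log2 fold change 1.13, SE 0.22, edgeR adjusted p = 3.04e-05).

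At Ccr7 the region at the start lost accessibility. It was at 1.74, 1.75, 3.07 and 2.13 CPM in young and 1.25, 0.965, 1.19 and 0.704 CPM in old libraries (log2 fold change -1.12, SE 0.25, edgeR adjusted p = 0.00036), and the groups did not overlap. At Cxcl16 and Ackr1, whose mRNA rose, the regions at the start were not called. Their means were 2.90 ± 0.0757 and 2.61 ± 0.864 CPM at Cxcl16, and 7.48 ± 0.676 and 8.81 ± 1.35 CPM at Ackr1 (n = 4 each). A region beyond the end of Ackr1, 4.0 kb downstream of its RefSeq start and outside the window used for these counts, gained accessibility (2.36 ± 0.553 to 4.60 ± 0.622 CPM, log2 fold change 0.97, SE 0.18, edgeR adjusted p = 2.10e-05).

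The largest gain among members lay within the long annotated model of Ccr9, the receptor for CCL25. The region (chr9:123688247-123688622), which contains the printed Ccr9 stretch, was at 0.633, 0.454, 0.730 and 0.571 CPM in young and 2.60, 2.74, 2.11 and 2.85 CPM in old libraries, without overlap. Its log2 fold change was 2.06 (SE 0.26, edgeR adjusted p = 3.88e-09). It lies 78.8 kb upstream of the RefSeq start of Ccr9, and also within the noncoding gene Gm17200, so the gene it belongs to cannot be told apart. Ccr9 mRNA averaged 1.99 ± 0.726 CPM (n = 4) in young and 1.82 ± 0.770 CPM (n = 8) in old HSCs and was not called (edgeR adjusted p = 0.901). The gained Ackr4 region and the lost Ccl25 region were 37.9 and 34.4 kb downstream of the RefSeq starts, and the gained Cxcr5 region was 33055 bp into its annotated model. The gained Cx3cr1 region was 3.8 kb downstream of the RefSeq start of that gene, whose mRNA stayed under 1 CPM in every HSC library.

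**Figure D3:**
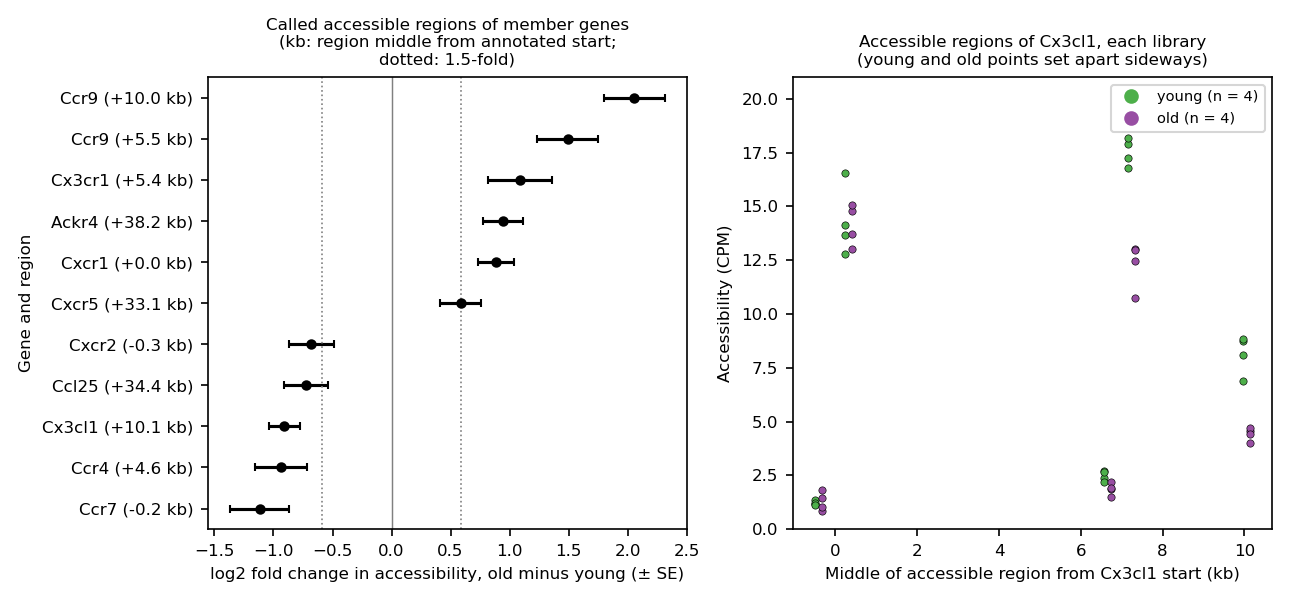
Left, log2 fold change in accessibility (old minus young, with SE) of the 11 called member regions, labelled by gene and distance of the region's middle from the annotated start, with dotted lines at 1.5-fold. Right, accessibility in CPM of each young (green) and old (purple) library over the 5 regions of Cx3cl1 by distance from its start, where the groups overlap at the regions around the start and do not overlap at those farther downstream.

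H3K27ac peaks were called by ratio, with limma as an alternative. A peak counted as changed where the ratio of means was above 1.5 and each old library differed from each young one by at least 1.2-fold in the same direction. Of 31 peaks at 26 members, 2 were higher (1 of them at Cxcl14) and 1 lower (Cx3cl1) in old HSCs, where 9.11% of all 39557 peaks were higher and 2.27% lower. The peak at the start of Cxcl14 had a signal of 0.792 and 0.575 in young and 1.06 and 1.21 in old libraries. It was not called by limma (adjusted p = 0.183), whereas the Cx3cl1 peak was (adjusted p = 0.0155). Without young replicate 1 the higher peaks numbered 5, without young replicate 2 they numbered 0, without old replicate 1 they numbered 1, and the lower peaks then numbered 2. Cxcl14 mRNA averaged 0.0470 CPM in young HSCs.

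In young HSCs, members were grouped by the active promoter mark H3K4me3 and the Polycomb mark H3K27me3 at their starts. H3K4me3 alone was at 13 starts, and 11 of those members had at least 1 CPM, among them Cxcr4, Ccl4, Ccl25, Ccrl2 and Ccl27a. H3K27me3 alone was at 14 starts, and 0 of those members reached 1 CPM. Both marks were at 9 starts (4 members at 1 CPM or more, including Cx3cl1 and Cxcl16) and neither at 26 (8 members). Over 21991 protein-coding genes, 46.0% had H3K4me3 alone, 16.5% H3K27me3 alone, 16.7% both and 20.8% neither, and of the 21782 with counts the share at 1 CPM or more in young HSCs was 95.8%, 14.5%, 54.3% and 22.6% in that order. Members with both marks ranged from 0.0470 to 45.5 CPM and those with neither from 0 to 11.7 CPM. Members are not independent here, since Ccl1, Ccl7, Ccl8, Ccl11 and Ccl12, a cluster of monocyte and eosinophil attractants, lie under 1 shared H3K27me3 peak, and Cx3cr1 and Ccr8 under another. Cxcl12 had H3K4me3 signals of 16.1 and 13.7 at its start with 2.27 CPM of mRNA. Of the members called with age, Cx3cl1, Ccr7 and Cxcl16 had peaks of both marks, Ackr1, Cxcr1 and Cxcl2 of H3K4me3 alone, and Cxcr5 of neither. A listed peak counted whatever its signal in young HSCs. The H3K27me3 signal at Cx3cl1 was only 0.140 and 0.191, the lowest at any member start with such a peak. Likewise the H3K4me3 signal at Ackr1 was the lowest of its kind, at 0.342 and 0.724.

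The knockdown comparison asked which members changed in old HSCs when nBtaf1 was targeted. In culture, Ccl9 (chr11:83572919-83578636, minus strand), a myeloid-attracting CC ligand, was the only one of 24 members tested that was called. It was at 2.15 and 2.63 CPM in the controls, 6.83 and 5.83 CPM with shRNA1 and 7.36 and 6.20 CPM with shRNA2. All 4 knockdown libraries lay above both controls, a 2.72-fold rise (log2 fold change 1.44, SE 0.18, edgeR adjusted p = 0.000389). In the same libraries the 5 GMP markers summed to 156 and 162 CPM in controls and 185 to 240 CPM in the knockdowns, also without overlap, nearly all of it Prtn3, while Mpo, Elane, Ctsg and Cebpe stood at 0.2145 CPM or less. Their part in the Ccl9 rise was not tested. No member was lower by edgeR (2 at an unadjusted p under 0.05). Without the filter on low counts, which left 44 members to test, edgeR and DESeq2 each called 1 lower. Over all genes tested 0.582% were higher and 0.324% lower. Without shRNA1 replicate 2, 2 members were higher, and without control replicate 1, 1 was lower.

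At an unadjusted p below 0.05, a looser threshold that 2.45% of all genes passed upwards and 0.972% downwards, 2 members were higher (Ccl9 and Ccl5) and 2 lower (Cxcl2 and Cxcl5) in culture. Ccl5 was at 0.655 and 1.64 CPM in controls, 5.06 and 1.80 CPM with shRNA1 and 5.32 and 3.42 CPM with shRNA2 (log2 fold change 1.77, SE 0.60, edgeR adjusted p = 0.244). Cxcl2 was at 1.40 and 8.74 CPM in controls and 0.340 to 0.530 CPM in the 4 knockdown libraries (log2 fold change -3.56, SE 0.77, edgeR adjusted p = 0.106). The controls differed from each other by more than the knockdown libraries did from the lower control. Control replicate 2, the high one, also held 453 CPM of the 10 inflammatory response genes followed here, against 237 CPM in replicate 1 and 239 to 286 CPM in the knockdowns, and 372 CPM of the 10 immediate early genes, against 254 CPM and 239 to 283 CPM. Their part in the falls of Cxcl2 and Cxcl5 was not tested. Cxcl5, a further neutrophil attractant, was at 0.562 and 1.18 CPM in controls and 0.146 to 0.471 CPM in the knockdowns (edgeR adjusted p = 0.114).

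Cx3cl1 was at 10.95 and 10.6 CPM in culture controls, 8.17 and 8.27 CPM with shRNA1 and 11.7 and 11.01 CPM with shRNA2, so that the controls lay between the shRNAs. Cxcl10 ranged from 0.265 to 26.4 CPM over the 4 knockdown libraries, against 6.04 and 9.65 CPM in the controls. Cxcl11 is annotated as a polymorphic pseudogene, and 1582 of its 3794 bp of exon overlap the processed pseudogene Gm2673 on the opposite strand. It was at 0.234 and 0.483 CPM in controls, 0.236 and 0 CPM with shRNA1 and 1.51 and 0.537 CPM with shRNA2. It was the only one of 24 members called between the shRNAs (shRNA2 minus shRNA1, log2 fold change 3.06, SE 0.87, edgeR adjusted p = 0.0472), where 0.572% of all genes were higher and 0.324% lower with shRNA2, and it rests on few reads. Cxcr4 was at 9.64 and 10.6 CPM in controls and 11.6 to 14.5 CPM in the knockdowns, without overlap, but was not called (log2 fold change 0.35, SE 0.12, edgeR adjusted p = 0.16).

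After transplantation, no member was called (0 higher and 0 lower of 29 tested by edgeR, lowest adjusted p = 0.852, and likewise 0 and 0 of 48 by DESeq2, run without the filter on low counts). Of all 20350 genes tested, 0% were called by edgeR in either direction. Without the filter, over 30903 genes, edgeR called 0 and DESeq2 16 higher and 8 lower. At an unadjusted p below 0.05, 3 members were higher and 0 lower by edgeR, where 1.43% of all genes were higher and 0.811% lower. These 3 were Ackr1, Cxcl5 and Cxcr2. Ackr1 was at 0.949 and 1.04 CPM in controls, 1.78 and 2.00 CPM with shRNA1 and 2.04 and 2.15 CPM with shRNA2, so the 4 knockdown libraries lay above both controls (log2 fold change 1.00, SE 0.27, edgeR adjusted p = 0.852). Cxcr2 was at 0.0949 and 0.266 CPM in controls and 0.454 to 1.24 CPM in the knockdowns, and Cxcl5 at 0.0475 and 0 CPM in controls and 0.0527 to 0.958 CPM in the knockdowns. The 8 neutrophil markers summed to 6.17 and 109 CPM in the controls and 79.6 to 532 CPM in the knockdowns, and their part in these values was not tested.

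Transplanted Ccl9 did not separate in the same way. It was at 1.898 and 2.71 CPM in controls, 6.69 and 1.37 CPM with shRNA1 and 2.72 and 6.68 CPM with shRNA2 (log2 fold change 0.92, SE 0.59, edgeR adjusted p = 0.928). The knockdown effects in the 2 experiments were compared directly over 34 members, and none differed (0 of 34 by edgeR, lowest adjusted p = 0.114 for Cxcl5), where 0.21% of all genes did. Without transplanted shRNA1 replicate 2, 1 member differed. At an unadjusted p below 0.05, 4 members did (Cxcl5, Ackr1, Cxcr4 and Cxcr2), against 8.75% of all genes. For Ccl9 the difference (transplant minus culture) was -0.52 on the log2 scale (SE 0.70, edgeR adjusted p = 0.897). One transplanted shRNA2 library, replicate 1, held 6.91 CPM of Cxcl12, 6.23 CPM of Ccr2 and 4.64 CPM of Ccl6, where the other 5 transplanted libraries held at most 1.58, 0.561 and 1.29 CPM. The monocyte and macrophage markers summed to 686 CPM in that library and to 642 CPM in the other shRNA2 library, against 491 and 525 CPM in the controls. Of these 10 markers, Adgre1 at 5.27, C1qa at 5.60 and C1qb at 12.0022 CPM stood apart in replicate 1. The other 5 transplanted libraries held at most 0.488, 1.95 and 3.42 CPM of them. These 3 markers were picked from the list and make up a small part of its sum, and the rest are not given here. The stromal markers of replicate 1 summed to 32.5 CPM, against 19.1 to 26.1 CPM in the others. The part of these markers was not tested.

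**Figure D4:**
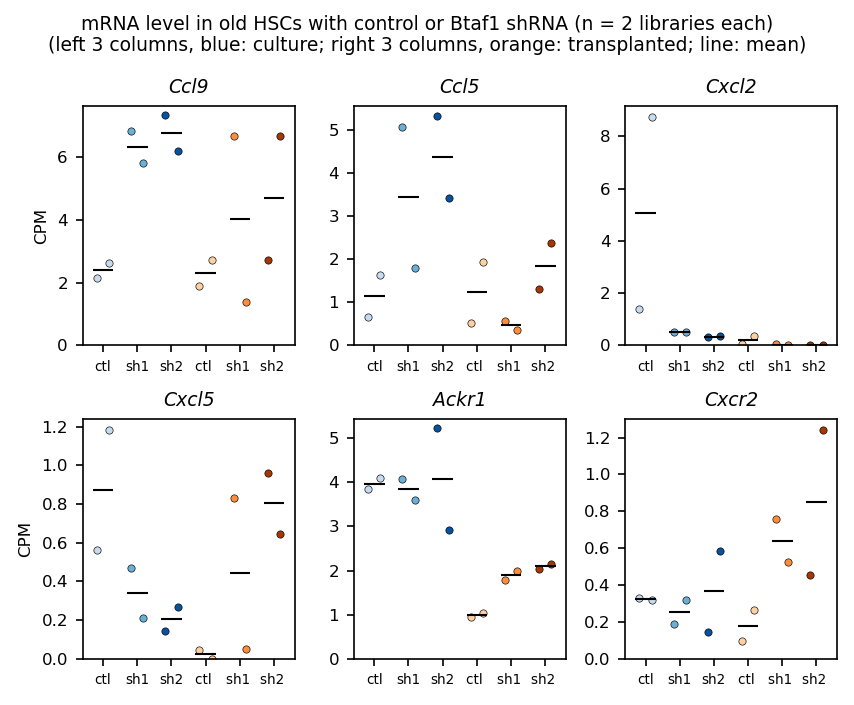
CPM (linear axes from 0) of 6 members in old HSCs with a control shRNA, shRNA1 (sh1) or shRNA2 (sh2), 2 libraries each with the mean as a line, in culture (blue) and after transplantation (orange). Cultured Ccl9 rises from 2.15 and 2.63 CPM to between 5.83 and 7.36 CPM, and the high Cxcl2 mean of the culture controls comes from 1 library at 8.74 CPM.

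Members that had enough reads in any of the 3 progenitors were compared between them, and 25 of 62 did. Of these, 8 had no read in MEP (Ccl3, Ccl4, Ccl24, Cx3cl1, Ccr1, Ccr3, Ccr7 and Ackr2) and were tested through their reads in CMP or GMP. Likewise Ackr1 was tested through its reads in MEP and Ccr7 through those in CMP. Ccl9, Cxcr2 and Cxcl10, with few reads in MEP, also passed the filter through CMP or GMP. The counts of members called between progenitors are therefore a description. Between MEP and CMP, 18 of 25 members tested were lower in MEP and 1 higher (edgeR, thresholds as for age), where 29.2% of all genes tested were lower and 17.5% higher. Between MEP and GMP, 13 were lower and 1 higher, against 27.2% and 16.6% of all genes. Between GMP and CMP, 7 were lower and 1 higher in GMP, against 10.5% and 6.24%. The 7 became 4 and 3 without CMP replicate 1 or 2 and 3 and 2 without GMP replicate 1 or 2. Without GMP replicate 1, 2 were higher in GMP. Among the calls in MEP against CMP, Ccl27a, Cxcl10, Ccl24 and Ccr3 were lost without at least 1 library (highest adjusted p = 0.0815, 0.224, 0.198 and 0.138), and against GMP Cxcl10 and Cx3cl1 (0.0607 and 0.0630). These comparisons share libraries, so they are not independent. In the same libraries, the sum of 10 monocyte and macrophage markers was 17.97 to 18.6 CPM in MEP, 536 to 644 CPM in CMP and 1427 to 1739 CPM in GMP, and all 10 were lower in MEP.

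Of the ligands, Ccl9 was the most abundant member anywhere, at 225 and 216 CPM in CMP and 181 and 201 CPM in GMP. In MEP it was at 0.282 and 0 CPM (log2 fold change MEP minus CMP -10.46, SE 0.26). Ccl9 passed the filter through CMP and GMP, where it is high, so this value is a description. With reads in 1 of the 2 MEP libraries, the log2 fold change of Ccl9 was -15.82 without MEP replicate 1 and -9.49 without MEP replicate 2. The young HSC libraries held 2.93 to 5.86 CPM of it. Ccl6 was at 4.27 and 4.99 CPM in CMP, 8.45 and 8.68 CPM in GMP and 0.0563 and 0.170 CPM in MEP, and it was the only member higher in GMP than in CMP (log2 fold change 1.11, SE 0.22, edgeR adjusted p = 0.00156). Ccl3 was at 1.04 and 0.701 CPM in CMP and at 0 in both MEP libraries, at least 10.3-fold lower. Ccl4, the leading member of HSCs per kilobase, averaged 0.779 ± 0.405 CPM (n = 2) in CMP and was at 0.0563 and 0.0603 CPM in GMP and 0 in MEP, against 26.4 to 27.8 CPM in young HSCs. Cx3cl1 was at 0.438 and 0.953 CPM in CMP, 0.169 and 0.121 CPM in GMP and 0 in MEP, against 42.2 to 46.8 CPM in young HSCs. HSC and progenitor libraries came from separate experiments of different depth, so cell type and experiment cannot be told apart and these levels are set side by side without a test. A gene without a read in the 2 MEP libraries lies below 0.0847 CPM, a floor of 6 reads over the group.

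Of the receptors, Ccr2 (chr9:124101950-124113557, plus strand), which draws monocytes from the marrow, was at 111 and 117 CPM in CMP, 119 and 101 CPM in GMP and 0.507 and 0.453 CPM in MEP (log2 fold change MEP minus CMP -7.77, SE 0.14, edgeR adjusted p = 4.20e-14). Cx3cr1, the fractalkine receptor, was at 25.9 and 22.5 CPM in CMP, 20.1 and 16.1 CPM in GMP and 0.676 and 0.340 CPM in MEP (log2 fold change MEP minus CMP -5.45, SE 0.25, edgeR adjusted p = 4.06e-10, between -6.04 and -5.05 over the alternatives). CMP and GMP did not differ past the threshold for either (edgeR adjusted p = 0.126 and 0.393). Ccr1 was at 1.10 and 4.65 CPM in CMP, 1.86 and 3.01 CPM in GMP and 0 in MEP, at least 33.7-fold lower than in CMP. In young HSCs Cx3cr1 stood at 0.293 to 0.539 CPM, where its ligand Cx3cl1 was at 42.2 to 46.8 CPM.

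Cxcr2, the neutrophil receptor, was at 12.2 and 11.9 CPM in CMP, 5.55 and 6.51 CPM in GMP and 0.169 and 0 CPM in MEP, a ratio of CMP to MEP of 142 (95% exact interval 48.4 to 693, for counting error only). It was also lower in GMP than in CMP (log2 fold change -0.78, SE 0.25, edgeR adjusted p = 0.0285), a call that was lost without any 1 of the 4 CMP and GMP libraries (adjusted p up to 0.149). Cxcr4 was the receptor that stayed highest in MEP, at 8.28 and 8.83 CPM, but still below the 33.7 and 30.0 CPM of CMP and 37.5 and 33.3 CPM of GMP (log2 fold change MEP minus CMP -1.78, SE 0.12, edgeR adjusted p = 1.95e-08).

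Ackr1 was the only member called higher in MEP, the group through which it passed the filter. It was at 2.45 and 2.38 CPM in MEP, 0.4656 and 0.0561 CPM in CMP and 0 in both GMP libraries (MEP minus CMP, log2 fold change 3.30, SE 0.64; at least 27.6-fold higher than in GMP). The value against CMP was 5.44 without CMP replicate 1 and 2.46 without CMP replicate 2. Of the other atypical receptors, Ackr2 and Ccrl2 were lower in MEP than in CMP (Ccrl2 at 8.46 and 10.3 CPM in CMP, 4.11 and 4.25 CPM in GMP and 3.49 and 5.09 CPM in MEP). Ccr7 was at 1.26 and 0.953 CPM in CMP, 0 and 0.0603 CPM in GMP and 0 in MEP, at least 13.1-fold lower in MEP than in CMP. The remaining members lower in GMP than in CMP were Ccl27a, Ccl4, Ccl5, Ackr1 and Ccrl2. Ackr1 had no read in GMP and Ccr7 had 2. Ccrl2 kept the call without any 1 library, while Ccl27a, Ccl4, Ccl5 and Ackr1 lost it without at least 1 of them (highest adjusted p = 0.227, 0.192, 0.248 and 0.171).

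**Figure D5:**
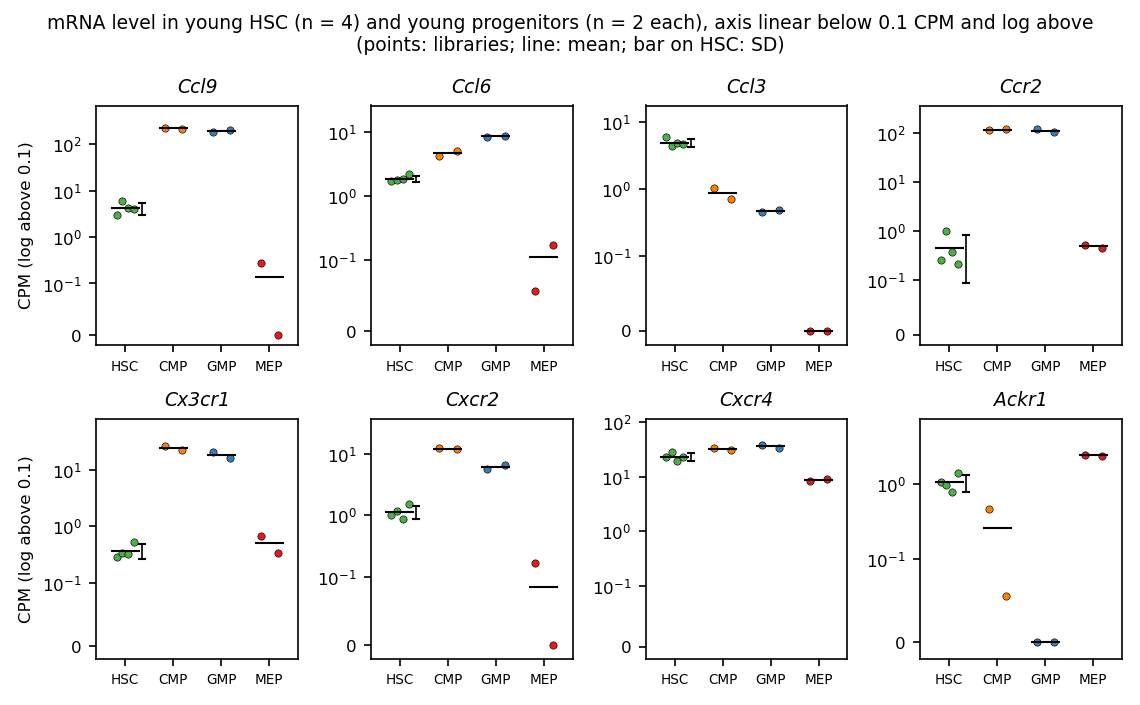
CPM of 8 members in young HSCs (n = 4) and in CMP, GMP and MEP (n = 2 each), on axes that are linear from 0 to 0.1 CPM and logarithmic above, with the mean as a line and the SD as a bar for HSCs. The myeloid genes drop in MEP, where Ccr2 is at 0.507 and 0.453 CPM against 101 to 119 CPM in CMP and GMP, and Ackr1 is highest in MEP.

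Outside the families, 37 other genes of chemokine signalling were followed. With age, 4 of 34 tested were called, all lower (Ppbp, a platelet chemokine, Rgs2 and Rgs10, which limit G protein signals, and Gng2, a G protein subunit), where 4.69% of all genes were higher and 2.83% lower. After knockdown in culture 2 were higher, Rgs2 (log2 fold change 0.71, SE 0.09, edgeR adjusted p = 0.000489) and Rgs10 (0.95, SE 0.24, edgeR adjusted p = 0.0445), of 34 tested, where 0.582% of all genes were higher, and after transplantation edgeR called 0 of 34 (1 at an unadjusted p under 0.05). In MEP against CMP 22 of 32 were lower and 2 higher (Arrb1 and Rgs10), where 29.2% of all genes were lower and 17.5% higher. The G protein subunit Gnai2 was among those lower (log2 fold change -0.91, SE 0.04, edgeR adjusted p = 5.85e-10). Of 10 inflammatory response genes, 9 were tested with age and 2 were higher (Ptgs2 and Bcl3), and of 10 immediate early genes 1 of 9 tested was higher (Jun) and 1 lower (Dusp1), against the same 4.69% and 2.83% of all genes.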

How the data were processed

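For mRNA the authors used cutadapt through trim galore, STAR (mm10, GENCODE M22) and featureCounts, and they deposited raw counts per gene. No source used here states the strand or multi-mapping settings of featureCounts, so near-identical paralogs (Ccl21a and Ccl21b, Ccl27a and Ccl27b, Ccl19 and its copies) are uncertain. For ATAC-seq the authors aligned with BWA and deposited raw counts per consensus region, and for H3K27ac, H3K4me3 and H3K27me3 they deposited a signal per peak from libraries scaled to a fixed number of reads. Their fold change columns were not used, nor were 8 columns of per-sample values tied to no listed sample. The labels and the methods name different library kits. Region coordinates are printed as deposited.

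Counts, without 92 spike-in rows, were filtered (filterByExpr), scaled by TMM and tested with edgeR 4.0.16's robust quasi-likelihood test (R 4.3.3), with Benjamini-Hochberg adjustment over all genes or regions. Both shRNAs were pooled as knockdown, and progenitors shared 1 fit. Regions needed more than 1.5 CPM in at least 4 libraries. In ATAC libraries 15427933 to 26260337 reads fell in regions. Young marks were assigned within 1000 bp of a start (H3K4me3) or from the start to 2000 bp downstream (H3K27me3). Of genes with 1 to 4 reads, 37.5 to 41.9% had an even count per HSC library but 72.8 to 79.0% per shRNA or progenitor library, a pattern that counting both mates of a pair would give. The floor was therefore 6 reads over a group there and 3 in HSCs, and intervals took 2 reads as 1 fragment. Floors and intervals cover counting error only.

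On simulated counts with 200 genes or regions changed 2-fold, 89.5% were recovered with age, 72.5% in culture and 66.5% in transplanted HSCs. Between CMP and GMP, fitted without MEP, 69% were recovered, and 88% of regions, with 0 to 12 false calls. The changed genes were drawn from those above a minimum mean count. These shares therefore do not extend to members with few reads, and the comparisons with MEP were not simulated. Same-group libraries differed by more than sampling noise. Same-numbered libraries correlated between -0.129 and 0.207 in their deviations from the group means and not above 0.1 in every pair, so no pairing was used. Members, gene lists and marker lists were chosen with earlier results of these data known. Named members were those called in any mRNA comparison, the 10 highest per kilobase in each group, 17 members well known in this tissue and those with a called region or peak, of which 1 is not reported here. Alternatives were DESeq2 1.42.0 on all genes with a read (no filter on low counts), its size factors, no filter on low counts, a 2-fold threshold, an unadjusted p for knockdowns (the study's threshold), each shRNA alone, the replicate number as a block, leaving out each library, a window of 5000 bp and limma 3.58.1 on log2 H3K27ac signal.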

Additional observations from a re-analysis of the deposited data

Results flagged for a closer look

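Of 68 groups of libraries checked for a single library apart from the rest (Dixon's ratio of the gap to the range, above its 95% limit), 8 had one, and chance gives about 1 in 20. In young HSCs these were Ccl27a in replicate 1 (20.04 CPM against 18.97 to 19.1 CPM in the others, ratio 0.835), Cx3cl1 in replicate 4 (42.2 against 46.3 to 46.8 CPM, ratio 0.897) and Cxcl2 in replicate 2 (4.40 against 0.539 to 0.879 CPM, ratio 0.912). In old HSCs, replicate 3 stood apart for Ccl5 (1.31 against 0.0902 to 0.358 CPM, ratio 0.781), Ccl6 (7.28 against 0.767 to 2.45 CPM, ratio 0.742) and Ccr3 (8.38 against 0.649 to 2.62 CPM, ratio 0.744). The others were Ackr4 in old replicate 6 (12.9 against 10.6 to 11.4 CPM, ratio 0.619) and Cxcl12 in old replicate 4 (2.23 against 0.406 to 1.27 CPM, ratio 0.528). The Cxcl2 library decides that gene's call with age, and the Cx3cl1 library does not.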

How the results depend on the processing

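Of 532 values of single genes under alternatives, over 49 genes and comparisons, 493 kept their direction and side of the threshold, 39 kept their direction only and 0 reversed. The age calls of Ackr1, Cxcr1, Cxcl16, Cx3cl1, Ccr7 and Cxcr5 held in all 16 alternatives each. Ccl9 in culture held in all 12, with an adjusted p of at most 0.0252. Counts of member genes that moved by more than 1.5 times were as follows. Without a filter on low counts, 7 were lower with age, 2 higher and 1 lower in culture, and 2 higher in GMP than CMP. DESeq2, run without that filter, also called 2 higher and 1 lower in culture. An unadjusted p gave 2 higher and 2 lower in culture, 3 higher after transplantation and 4 that differed between the experiments. A fold change above 2 left 4 lower in GMP than CMP. A window of 5000 bp gave 12 gained of 124 member regions tested, where 10.1% of all regions gained. Testing regions without the CPM filter gave 9 lost of 114, where 3887 of all 127695 were lost. For H3K27ac, a ratio above 2, limma and limma with a replicate block each gave 0 higher peaks, and scaling by the median gave 2 lower peaks.

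Leaving out 1 library at a time gave 3 higher and 4 to 6 lower with age, 1 to 2 higher and 0 to 1 lower in culture, 0 and 0 after transplantation, 1 to 2 higher and 2 to 7 lower in GMP than CMP, 1 higher and 15 to 18 lower in MEP than CMP, and 1 higher and 12 to 15 lower in MEP than GMP. It gave 0 to 1 for the difference between experiments, 3 to 5 gained and 3 to 6 lost regions, and 0 to 5 higher and 1 to 2 lower H3K27ac peaks. Where this left an arm with 1 library, that library was taken to vary like the other groups.

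With the replicate block, 4 were higher and 3 lower with age, with Cxcl9 added and Cxcl2 lost (log2 fold change -1.18), and 6 were lower in GMP than CMP. It left 16 lower in MEP than CMP and moved no other count of genes. No paired analysis was possible for ATAC-seq because young and old libraries share no replicate number. At a detection threshold of 0.5 CPM, 30 members were detected in old HSCs in place of 19. With 2 libraries per arm, changes under about 1 CPM in the shRNA and progenitor groups rest on few reads.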
